A study of Mus musculus with 13 samples.

Results

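Mouse metaphase II (MII) oocytes that had matured from NSN germinal vesicle (GV) oocytes, called NSN-MII, were compared with those that had matured from SN GV oocytes, called SN-MII. The comparison used the 7 MII libraries of the 13 in the series, chosen by their sample labels: 3 NSN-MII and 4 SN-MII libraries, each from 1 oocyte. The other 6 libraries, 3 NSN GV and 3 SN GV oocytes, served only to place the MII levels. The methods describe the same protocol for all oocytes. They were taken as GV oocytes from C57BL/6 females of 3 to 4 weeks, 48 h after PMSG, a gonadotropin that stimulates follicle growth, and held at that stage by 10 µM Cilostamide, an inhibitor of phosphodiesterase 3. FBL–GFP mRNA was injected into them, the nucleolar pattern of the fusion protein was read after 6 h, and the MII groups were then released to mature in culture. Each oocyte was stripped of its zona pellucida, the outer glycoprotein coat, before lysis. No genetic change, drug or knockdown separated the groups, so there was no targeted gene to check. NSN-MII oocytes stand only for those NSN oocytes that reached MII. The sources used here do not say which female an oocyte came from or give dates of collection or sequencing, so p-values measure the spread between these oocytes, and an effect of animal or day cannot be told apart from that of the group.

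In a fully grown GV oocyte the chromatin either lies dispersed and clear of the nucleolus (non-surrounded nucleolus, NSN), while transcription still runs, or condenses around the nucleolus (surrounded nucleolus, SN), by which time transcription has stopped. From the resumption of meiosis to MII the oocyte makes almost no new RNA. It lives on mRNA stored during growth, part of which is deadenylated and degraded on the way while another part gains a longer poly(A) tail and is translated. SMART-seq2, the method used, primes reverse transcription on poly(A) tails, so a lower value can stand for fewer molecules or for shorter tails, and these cannot be told apart. All levels below are CPM, read counts scaled to a common library total, that is, shares of what was sequenced and not amounts per oocyte.

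Total counts were between 7419438 and 8846287 per library, and 11579 to 12511 genes had at least 1 count. NSN-MII oocytes had 12192 ± 531 genes detected (SD, n = 3), against 12209 ± 280 (SD, n = 4) of SN-MII oocytes (exact permutation test, two-sided, p = 0.971). With 3 oocytes against 4, the exact test cannot go below p = 0.0571. The 15 oocyte markers were all abundant enough to be tested, with 25187 to 33217 CPM in sum. Of 18 markers of cumulus and granulosa cells, Fshr, Foxl2 and Ptx3 were at 0 throughout, and the 18 together held 85.7 to 113 CPM in SN-MII and 86.6 to 153 CPM in NSN-MII (exact permutation test, two-sided, p = 0.514). Most of that sum was Cyp19a1, at 71.0 to 139 CPM. Libraries stood apart in both groups. NSN-MII 3 had the lowest total and the fewest genes, and SN-MII 4 the highest total and the fewest genes of the SN-MII oocytes, so the calls are also given without each of them at the end of the results. Fbl, whose coding sequence was part of the injected mRNA, was at 12.9, 32.6, 26.0 and 80.6 CPM in SN-MII 1 to 4 and at 15.3, 4.90 and 27.7 CPM in NSN-MII 1 to 3, and the groups overlapped.

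At MII 10028 of the 18939 genes listed had enough counts to be tested, and 28 of them (0.279%) differed between NSN-MII and SN-MII at an adjusted p under 0.05 (edgeR's quasi-likelihood test, Benjamini-Hochberg adjustment over all genes tested). Of these, 26 (0.259% of the genes tested) were lower in NSN-MII and 2 (0.0199%), Tacc3 and Slc25a48, were higher. The genes that fell included Mff, a receptor for mitochondrial fission, Ube2t, an enzyme of crosslink repair, H3f3a, a gene for histone H3.3, and Ncaph, a subunit of condensin. The median log2 fold change of the 26 was -1.51, against 0.02 over all genes tested, and the 28 changes were between 1.96-fold (Slc25a48) and 11.9-fold (Ube2t) in size. Over all genes the shift was not one-sided: 4808 of the genes tested (47.9%) had a log2 fold change under 0. At an unadjusted p under 0.05 there were 942 genes, 507 lower and 435 higher, and with a fold change of at least 1.5 as well there were 391 lower (3.9%) and 324 higher (3.23%). Features that only the FPKM table lists gave no call among 1432 tested (limma, Benjamini-Hochberg adjustment), with 98 at an unadjusted p under 0.05.

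**Figure D1:**
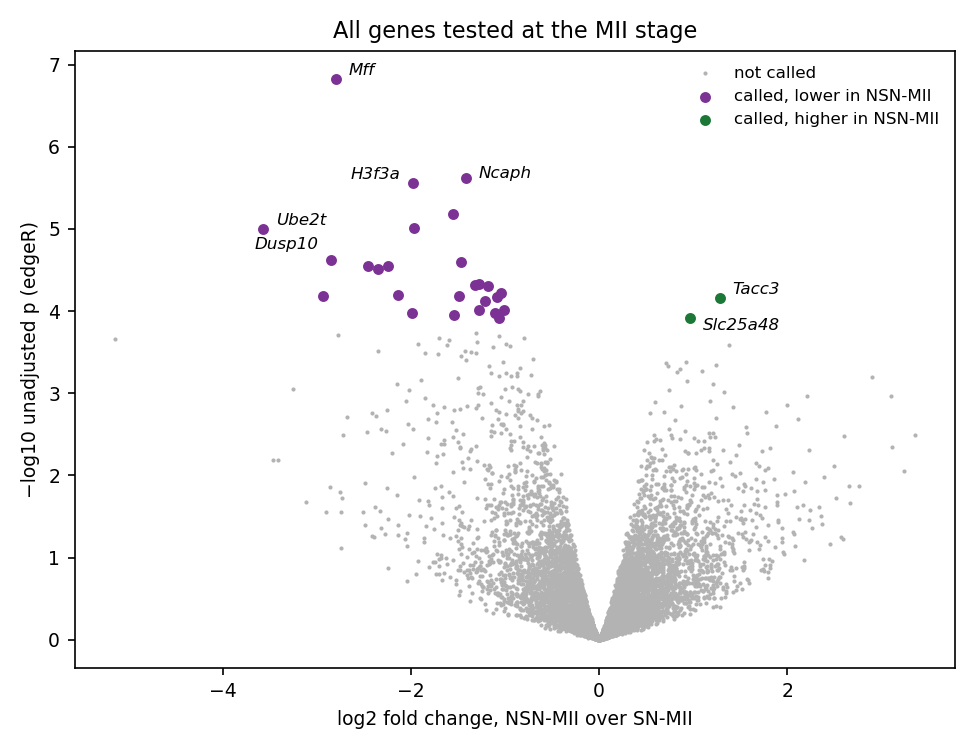
Each point is 1 of the 10028 genes tested. The x axis gives the log2 fold change of NSN-MII over SN-MII and the y axis minus log10 of the unadjusted p of edgeR's quasi-likelihood test. The 26 genes called lower (purple) lie on the left, with Mff at the top, and the 2 called higher (green), Tacc3 and Slc25a48, on the right.

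**Figure D2:**
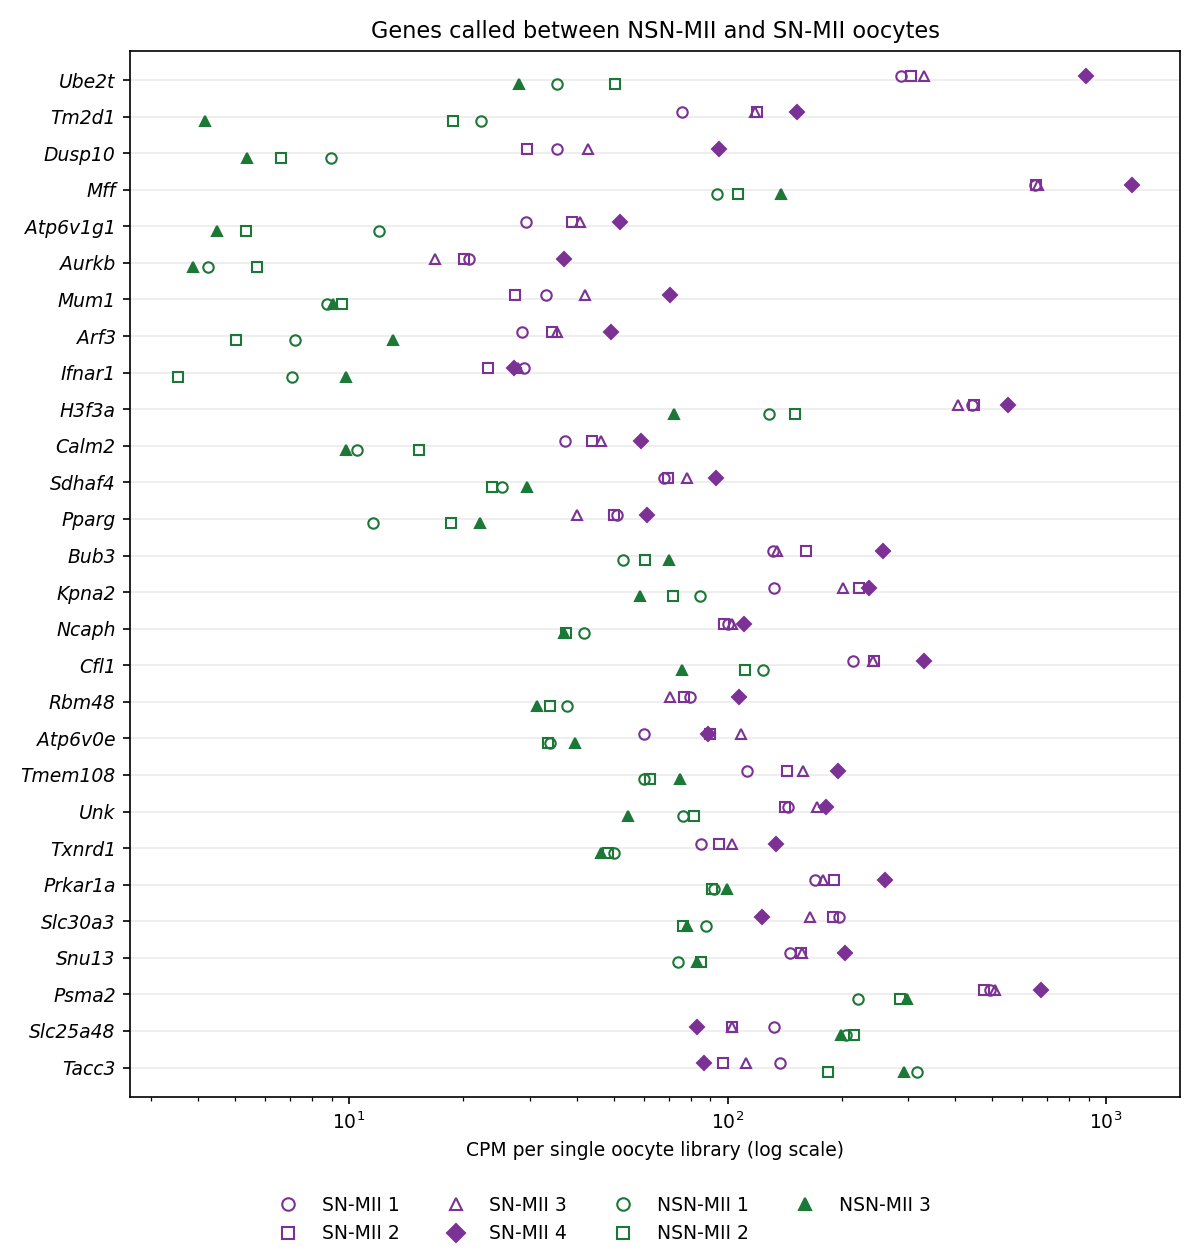
CPM on a log axis in each of the 7 single oocytes for the 28 genes called, ordered by log2 fold change from Ube2t (-3.57) to Tacc3 (1.29). SN-MII oocytes are purple and NSN-MII oocytes green, the shape gives the replicate number, and in every gene the 2 colours are separate. The filled diamond, SN-MII 4, is the highest SN-MII oocyte in 23 of the 26 genes called lower.

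The gene with the smallest p was Mff (chr1:82724890-82752394, mm10), whose product sits on the outer mitochondrial membrane and recruits the fission dynamin Drp1. It was at 649.8, 654, 659 and 1171 CPM in SN-MII 1 to 4 and at 93.8, 107 and 139 CPM in NSN-MII 1 to 3. The lowest SN-MII oocyte was thus well above the highest NSN-MII oocyte, and SN-MII 4 stood above the other 3 of its group. The log2 fold change was -2.79 ± 0.25 (SE), with an adjusted p of 0.00149. Without SN-MII 4 it was -2.53, and without NSN-MII 3 -2.97. Of the 13 genes of mitochondrial fission and fusion that were tested, Mff was the only one called, where 0.259% of all genes tested were called lower. Dnm1l, which encodes Drp1 and was looked up after its value was known, had 323 to 401 CPM in SN-MII and 384 to 489 CPM in NSN-MII, with a log2 fold change of 0.20 and an adjusted p of 0.75.

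Of the other mitochondrial genes, Sdhaf4 and Slc25a48 were called, in opposite directions. Sdhaf4 encodes an assembly factor of succinate dehydrogenase (complex II) and had 67.8, 69.7, 78.1 and 93.1 CPM in SN-MII against 25.4, 23.8 and 29.5 CPM in NSN-MII (log2 fold change -1.56 ± 0.20, adjusted p = 0.0163). Slc25a48, a member of the family of carriers of the inner mitochondrial membrane, rose. It was at 133, 103, 103 and 83.3 CPM in SN-MII and at 205, 216 and 199 CPM in NSN-MII (log2 fold change 0.97 ± 0.17, adjusted p = 0.0436), with no overlap. It was 1 of 31 mitochondrial carriers tested, of which 4 lay wholly higher and 3 wholly lower in NSN-MII, beside 4.63% and 5.61% of all genes. Sdhc, a membrane subunit of complex II, also did not overlap, at 49.99 to 90.3 CPM in SN-MII and 15.5 to 36.4 CPM in NSN-MII, but was not called (adjusted p = 0.133). None of the 73 genes of the respiratory chain and ATP synthase was called.

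Ube2t (chr1:134962565-134974162) had the largest fold change. Its product is the ubiquitin-conjugating enzyme of the Fanconi anemia pathway, which attaches ubiquitin to FANCD2 at DNA interstrand crosslinks. SN-MII oocytes had 286, 305, 331 and 886 CPM and NSN-MII oocytes 35.5, 50.3 and 28.2 CPM. The groups were far apart, and SN-MII 4 again stood above the others. The log2 fold change was -3.57 ± 0.45 (adjusted p = 0.0169). It was -3.01 without SN-MII 4, and without NSN-MII 3 it was -3.40 with an adjusted p of 0.0777. Among the 16 Fanconi genes tested Ube2t was the only call, where 0.259% of all genes tested were called lower. The median log2 fold change of the list was -0.04. In 4 of the 16 (25%) the NSN-MII oocytes lay wholly lower and in none wholly higher, where 5.61% of all genes tested lay wholly lower and 4.63% wholly higher. Fancg, a subunit of the Fanconi core complex, was at 28.6 to 44.3 CPM in SN-MII and 14.7 to 17.9 CPM in NSN-MII (adjusted p = 0.0891). Fancd2, the substrate, overlapped, at 150 to 189 CPM against 118 to 167 CPM (log2 fold change -0.26, adjusted p = 0.70).

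The remaining repair genes gave 1 call. Mum1 encodes a chromatin protein with a PWWP domain that takes part in the response to DNA damage. It was at 33.1, 27.5, 42.1 and 70.3 CPM in SN-MII and at 8.73, 9.58 and 9.09 CPM in NSN-MII (log2 fold change -2.24 ± 0.34, adjusted p = 0.0284). Of the 22 damage signalling genes tested 5 (22.7%, beside 5.61% of all genes) lay wholly lower, Mum1 included, and none lay wholly higher. Mum1 was the only call of the 22, where 0.259% of all genes tested were called lower. H2afx, which encodes the histone H2A.X that is phosphorylated at breaks, was at 80.4, 79.5, 89.3 and 205 CPM in SN-MII and at 36.2, 32.7 and 70.2 CPM in NSN-MII, without overlap but not called (adjusted p = 0.261). Among 48 genes of excision, mismatch and end-joining repair 7 (14.6%, beside 5.61% of all genes) lay wholly lower and 1 wholly higher (4.63% of all genes), with no call. The lower ones included Tdp1, which clears topoisomerase I adducts (log2 fold change -1.03, adjusted p = 0.0798), and Cetn2, which helps to recognise damage in nucleotide excision repair (-1.09, adjusted p = 0.14). The 25 homologous recombination genes had no call, and 19 of them had a positive log2 fold change (median 0.19). Of the 25, 2 lay wholly lower (8%, beside 5.61% of all genes) and 2 wholly higher (4.63% of all genes). Rad51c, which acts in strand exchange, was one of the lower ones at 20.04 to 35.8 CPM against 4.69 to 14.0 CPM (adjusted p = 0.136).

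The calls included Ncaph, which was in none of the gene lists, and Aurkb and Bub3, which act on chromosomes or the spindle. Aurkb and Bub3 were not called without SN-MII 4. Ncaph (chr2:127103809-127133954), the kleisin subunit of condensin I, which compacts chromosomes, showed the least spread. It was at 100.1, 98.0, 103 and 111 CPM in SN-MII and at 41.7, 37.4 and 37.0 CPM in NSN-MII, so that each group stayed within a narrow band (log2 fold change -1.41 ± 0.17, adjusted p = 0.00928). Aurkb encodes the kinase of the chromosomal passenger complex, which corrects faulty attachments of kinetochores. It was at 20.7, 20.1, 16.9 and 37.0 CPM in SN-MII and at 4.26, 5.70 and 3.87 CPM in NSN-MII (log2 fold change -2.35 ± 0.36, adjusted p = 0.0284). Its germline paralogue Aurkc, named after its value was seen, was the more abundant in counts and overlapped, at 513 to 574 CPM against 454 to 611 CPM (log2 fold change -0.07, adjusted p = 0.95). Bub3, a protein of the spindle assembly checkpoint, was at 132, 161, 135 and 258 CPM in SN-MII and at 52.8, 60.6 and 70.2 CPM in NSN-MII (log2 fold change -1.49 ± 0.25, adjusted p = 0.0348). It was the single call among 12 checkpoint genes, where 0.259% of all genes tested were called lower.

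Tacc3 (chr5:33658128-33678995), a microtubule-binding protein of the spindle that works with clathrin and ch-TOG, moved the other way. It was at 137, 97.4, 112 and 86.7 CPM in SN-MII and at 316, 184 and 293 CPM in NSN-MII. All NSN-MII oocytes were above all SN-MII oocytes, and the spread was wider in NSN-MII (log2 fold change 1.29 ± 0.22, adjusted p = 0.0348). Of the 28 genes of the meiotic spindle and the chromosomal passengers, Tacc3 was called higher and Aurkb lower, beside 0.0199% and 0.259% of all genes. In this list 4 lay wholly lower (14.3%, beside 5.61% of all genes) and 2 wholly higher (4.63% of all genes). Tacc1, a relative of Tacc3, was the other of the 2 that lay higher, at 37.3 to 45.8 CPM against 62.4 to 66.3 CPM (adjusted p = 0.20). None of 18 genes of CDK1 and its regulators was called, nor any of 20 genes of the anaphase-promoting complex and its regulators. Of the 18, 2 lay wholly lower (11.1%, beside 5.61% of all genes) and 1 wholly higher (4.63% of all genes). Ccnb1, the cyclin of CDK1, was at 2460 to 3150 CPM against 2258 to 3216 CPM (log2 fold change -0.02). Ube2c, the conjugating enzyme of the anaphase-promoting complex, lay lower without overlap, at 107 to 151 CPM against 12.7 to 71.0 CPM (adjusted p = 0.202).

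H3f3a (chr1:180800832-180813943) is 1 of the 2 genes for histone H3.3, the variant that is laid down outside DNA replication. It was at 442, 447, 407 and 551 CPM in SN-MII and at 129, 151 and 72.4 CPM in NSN-MII (log2 fold change -1.98 ± 0.24, adjusted p = 0.00928). H3f3b, which encodes the same protein, held more of the counts and overlapped, at 2143 to 3459 CPM against 1858 to 2958 CPM (log2 fold change -0.16, adjusted p = 0.90). H3f3b was picked after its value was seen, and the difference between the pair was not tested. Calm2, which encodes calmodulin, the calcium sensor that acts at egg activation, was at 37.3, 43.7, 46.4 and 58.9 CPM in SN-MII and at 10.5, 15.3 and 9.83 CPM in NSN-MII (log2 fold change -1.97 ± 0.27, adjusted p = 0.0169). The counting shares out reads that match several places, which bears on genes with near-identical copies such as H3f3a, Calm2, Cfl1 and Psma2.

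The other calls belonged to various lists or to none. Kpna2, an importin alpha, was at 133, 223, 202 and 237 CPM in SN-MII and at 84.3, 71.8 and 58.9 CPM in NSN-MII (log2 fold change -1.47 ± 0.22, adjusted p = 0.0284). It was the only call of 26 genes of nuclear import and export, where 0.259% of all genes tested were called lower. The oocyte importin Kpna7 was at 380 to 468 CPM against 285 to 387 CPM, overlapping (adjusted p = 0.62). Cfl1, cofilin, which severs actin filaments, was at 215, 244, 243 and 330.4 CPM against 124, 111 and 75.7 CPM (log2 fold change -1.32 ± 0.21, adjusted p = 0.0348). It was the only call of 28 actin genes, beside the same 0.259% of all genes. Psma2, an alpha subunit of the core proteasome, was at 495, 477, 509 and 672 CPM against 221, 285 and 297 CPM (log2 fold change -1.01 ± 0.18, adjusted p = 0.0421). Of 37 proteasome genes 4 (10.8%, beside 5.61% of all genes) lay wholly lower and 2 wholly higher (4.63% of all genes). Psmc1, an ATPase of the cap, was among the latter, at 9.95 to 12.7 CPM against 21.2 to 31.0 CPM (adjusted p = 0.0825).

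Atp6v1g1 and Atp6v0e, subunits of the proton pump V-ATPase, were among the genes called lower, which were 26 of the 28 called. Atp6v1g1 had 29.4, 38.8, 40.8 and 52.0 CPM in SN-MII, against 12.003, 5.36 and 4.47 CPM in NSN-MII (log2 fold change -2.45, adjusted p = 0.0284). Atp6v0e had 60.2 to 109 CPM against 33.5 to 39.6 CPM (log2 fold change -1.28, adjusted p = 0.0421). No list of V-ATPase genes had been drawn up, so the complex as a whole was not assessed. Slc30a3, which loads zinc into vesicles, was lower by 1.06 on the log2 scale (adjusted p = 0.0436), with 123 to 197 CPM against 76.4 to 87.7 CPM. It was 1 of 3 genes called lower in which SN-MII 4 was not the highest of its group.

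Dusp10, a phosphatase that switches off p38 and JNK kinases, was at 35.4, 29.6, 42.8 and 94.8 CPM in SN-MII and at 8.95, 6.61 and 5.36 CPM in NSN-MII (log2 fold change -2.85 ± 0.43, adjusted p = 0.0284). It was the 1 call of the 14 genes grouped with the Mos-MAPK pathway, where 0.259% of all genes tested were called lower. Mos itself, the kinase that holds the MII arrest, overlapped at 474 to 1106 CPM against 359 to 685 CPM (log2 fold change -0.57, adjusted p = 0.592). Prkar1a, a regulatory subunit of the cAMP-dependent kinase that keeps GV oocytes arrested, was at 170 to 260 CPM against 90.8 to 99.7 CPM (log2 fold change -1.09, adjusted p = 0.0348). Txnrd1, the cytosolic thioredoxin reductase, was at 85.0 to 134 CPM against 46.3 to 50.1 CPM (log2 fold change -1.11, adjusted p = 0.0427), and 5 of the 23 redox genes tested (21.7%, beside 5.61% of all genes) lay wholly lower and none wholly higher. They included Txnip, which binds thioredoxin, at 1510 to 2299 CPM against 542 to 1027 CPM (log2 fold change -1.31, adjusted p = 0.0635).

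The remaining 8 genes called lower had log2 fold changes from -2.93 to -1.04. Among them were Snu13, a protein of the U4 snRNP and of the box C/D snoRNPs to which fibrillarin also belongs, at 146, 156, 157 and 204 CPM in SN-MII and 73.8, 85.3 and 83.0 CPM in NSN-MII (adjusted p = 0.0348). Rbm48, a factor for minor introns, was at 70.5 to 107 CPM against 31.4 to 37.6 CPM. The splicing list held 46 genes tested, with no call, 8 wholly lower (17.4%, beside 5.61% of all genes) and none wholly higher, Sf3b4 (adjusted p = 0.0891) and Sf3b5 (adjusted p = 0.111) among them, while its median was -0.02. Pparg, a nuclear receptor for lipids, was at 40.0 to 61.1 CPM against 11.6 to 22.2 CPM, and Ifnar1, a chain of the type I interferon receptor, at 23.3 to 29.0 CPM against 3.54 to 9.83 CPM. Unk, an RNA-binding regulator of translation, Arf3, a small GTPase of the Golgi, and the membrane proteins Tm2d1 and Tmem108 completed the calls.

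Among oocyte transcripts with no call, those for secreted factors and contact with somatic cells leaned lower. Of 12 tested, 11 had a negative log2 fold change, beside 47.9% of all genes tested. Their median was -0.21, beside 0.02 over all genes tested, and 3 (25%, beside 5.61% of all genes) lay wholly below SN-MII. Bmp15, the growth factor that acts on cumulus cells, was at 3520, 3357, 3295 and 3654 CPM in SN-MII and at 1807, 1961 and 857 CPM in NSN-MII (log2 fold change -1.17 ± 0.24, adjusted p = 0.0826). Its partner Gdf9 was at 8665 to 10717 CPM and 6776 to 8787 CPM, overlapping only through SN-MII 1. In the list of zona pellucida, sperm binding and cortical granule genes 4 of 10 (40%, beside 5.61% of all genes) lay wholly lower and the median was -0.49, with -0.28, -0.27 and -1.36 in NSN-MII 1 to 3 relative to the SN-MII mean. Without NSN-MII 3 the median was -0.32, but 2 of the 10 genes were called higher and 1 lower. Of all genes tested in that fit 1.07% were called higher and 1.23% lower. DESeq2 on all 7 oocytes called 3 of the 10 lower and none higher, so the direction of the calls depended on the fit. Plat, tissue plasminogen activator, of which the oocyte translates a stored mRNA during maturation, was at 2895 to 5779 CPM against 2515 to 2811 CPM (log2 fold change -0.86, adjusted p = 0.152). The zona genes did not share a direction within NSN-MII. Zp1 was at 1317 and 1003 CPM in NSN-MII 1 and 2 but at 144 CPM in NSN-MII 3, with 190 to 409 CPM in SN-MII. Maternal effect genes showed no shift, with no call and no gene without overlap among 26 (median 0.04). Of 34 genes of mRNA storage, polyadenylation and decay 3 (8.8%) lay wholly lower and 1 wholly higher. Over all genes tested 5.61% lay wholly lower and 4.63% wholly higher.

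Nuclear envelope and positioning genes gave no call among 19. Syne2, a nesprin that ties the nucleus to the cytoskeleton, was at 506, 442, 449 and 344 CPM in SN-MII and at 722, 744 and 707 CPM in NSN-MII (log2 fold change 0.74 ± 0.15, adjusted p = 0.0825). Lbr, the lamin B receptor, went the other way at 316 to 814 CPM against 241 to 333 CPM, with an overlap through SN-MII 1 (adjusted p = 0.116). The list of cytosolic chaperones had 2 of 29 genes wholly higher, near the 4.63% of all genes, and none wholly lower, with no call. One was Hspd1, a member whose product works in mitochondria and not in the cytosol, at 83.6 to 133 CPM against 139 to 201 CPM (log2 fold change 0.67, adjusted p = 0.22).

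**Figure D3:**
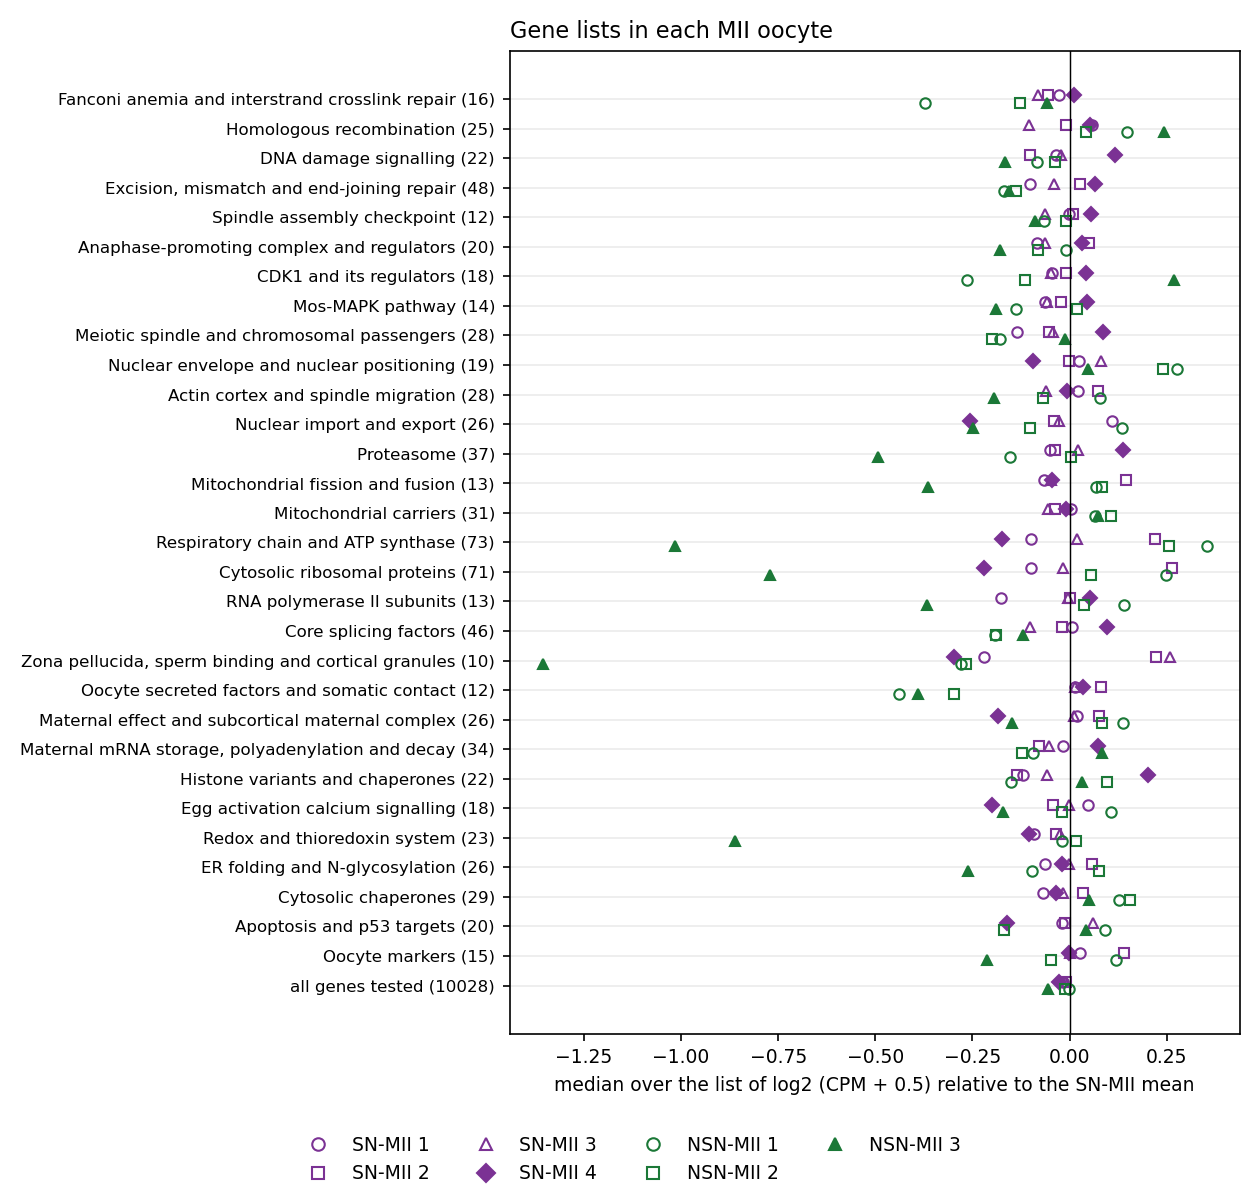
For each gene list (number of genes tested in brackets) the x axis gives the median over its genes of log2 (CPM + 0.5) in an oocyte, relative to the mean of the SN-MII oocytes. NSN-MII 3 (filled green triangle) lies far to the left in the respiratory chain (-1.02) and the ribosomal proteins (-0.77), where NSN-MII 1 and 2 lie above 0.

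In some lists the NSN-MII oocytes stood far apart from one another. For the respiratory chain and ATP synthase the medians over the list, relative to the SN-MII mean, were 0.35, 0.26 and -1.02 in NSN-MII 1 to 3. For the cytosolic ribosomal proteins they were 0.25, 0.05 and -0.77, and for the redox genes -0.02, 0.02 and -0.86. NSN-MII 3 was thus the low oocyte in all 3 lists, as it was in the zona list. The median log2 fold change of the redox list was -0.17, and 0.03 without NSN-MII 3. In the list of secreted factors they were close together, with -0.44, -0.30 and -0.39, all 3 below the SN-MII oocytes, which were between 0.01 and 0.08.

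The 28 calls were set beside the levels of the same genes in GV oocytes, in FPKM, which is scaled by gene length and library size. NSN GV and SN GV oocytes overlapped in 27 of the 28 genes, as they did in 92.8% of all genes tested. The exception was Dusp10, at 20.3 to 21.7 FPKM in NSN GV and 23.7 to 27.5 FPKM in SN GV. Of the 26 genes called lower, NSN-MII oocytes lay below all 6 GV oocytes in 25, while SN-MII oocytes lay below them in 7, overlapped them in 18 and lay above in 1, Unk. Over all genes tested, 28.9% lay below the GV oocytes in NSN-MII and 29.1% in SN-MII. The genes were chosen for being low in NSN-MII, which favours the first of these counts, and the change between stages was not tested here.

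Mff showed the commonest pattern. It was at 516 to 643 FPKM in NSN GV, 582 to 650 FPKM in SN GV and 588 to 1039 FPKM in SN-MII, but at 112 to 132 FPKM in NSN-MII. Psma2 was at 161 to 239 FPKM over the GV oocytes, 223 to 292 FPKM in SN-MII and 110.1 to 138 FPKM in NSN-MII. In both genes SN-MII oocytes therefore overlapped the GV levels, and NSN-MII oocytes alone were below them. Calm2 and Kpna2 were low in both MII groups. Calm2 was at 252 to 365 FPKM over the GV oocytes, at 34.0 to 49.4 FPKM in SN-MII and at 9.08 to 14.6 FPKM in NSN-MII. Kpna2 was at 693 to 963 FPKM, 79.9 to 112 FPKM and 34.1 to 64.8 FPKM in the same order.

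The 2 genes called higher differed in this respect. Tacc3 was at 950 to 1204 FPKM in GV oocytes, 39.0 to 64.0 FPKM in SN-MII and 91.7 to 161 FPKM in NSN-MII, so that NSN-MII oocytes held an intermediate level far nearer to SN-MII. Slc25a48 was at 23.1 to 26.8 FPKM in GV oocytes, 22.2 to 38.4 FPKM in SN-MII and 52.0 to 65.9 FPKM in NSN-MII, which was above all GV oocytes.

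**Figure D4:**
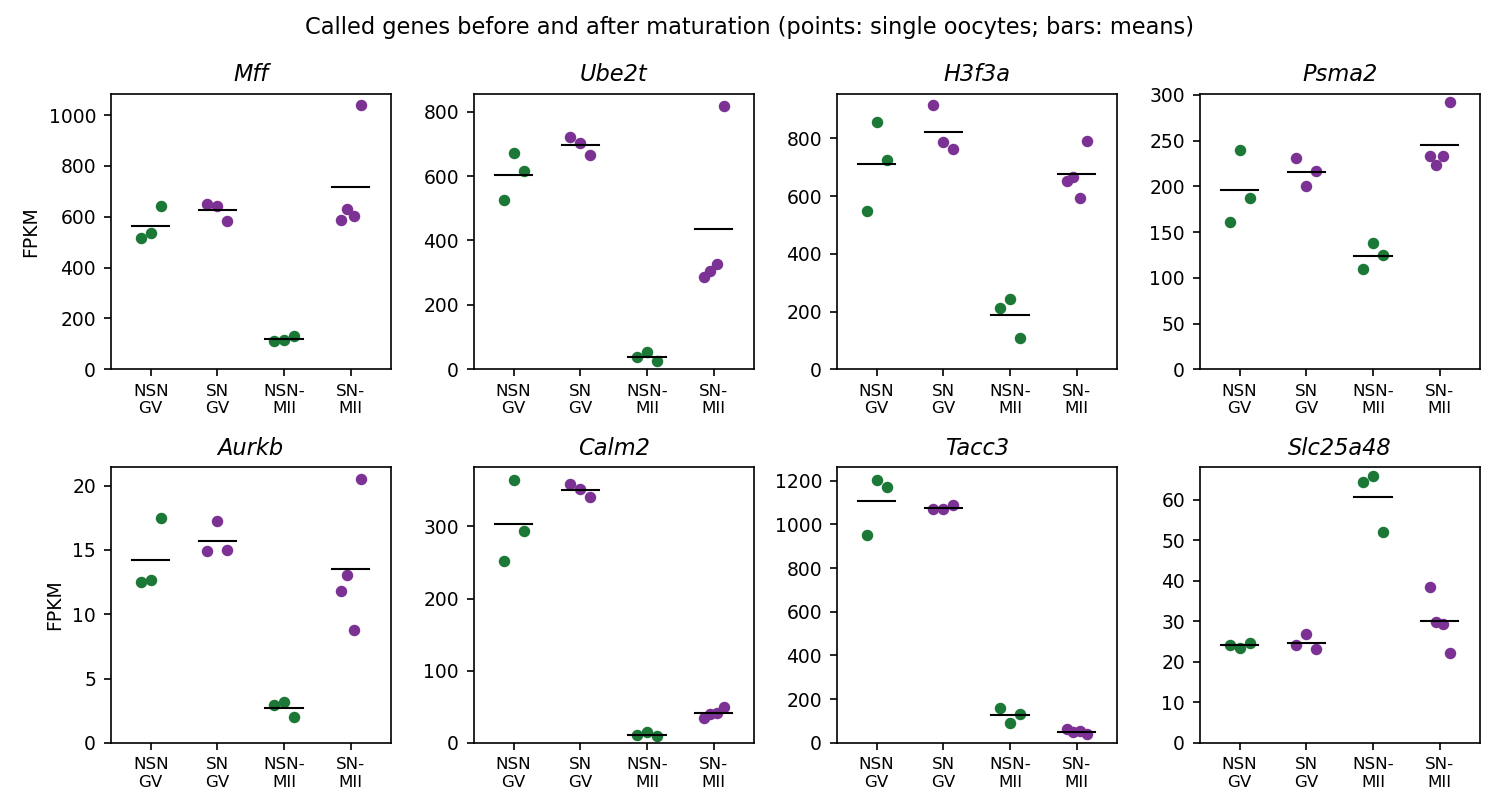
FPKM of 8 called genes in each single oocyte (points) with the group mean (bar), NSN groups in green and SN groups in purple, on axes that start at 0. For Mff, Ube2t, H3f3a, Psma2 and Aurkb the NSN-MII points lie below the other 3 groups, for Calm2 and Tacc3 both MII groups lie far below GV, and for Slc25a48 NSN-MII lies above the rest.

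Since the assay primes on poly(A) tails, the annotated 3′ ends of the calls were read for the elements that control tail length in maturing oocytes. The cytoplasmic polyadenylation element, bound by CPEB1, was searched as TTTTAT or TTTTAAT on the sense strand in the last 100 bases of the longest coding transcript (GENCODE M21, mm10). It was present in 7 of the 26 genes called lower (26.9%) and in 20.7% of the 9878 genes tested with an annotated 3′ UTR, and in the last 200 bases in 30.8% and 30.7%. A polyadenylation signal, AATAAA or ATTAAA, was present in the last 100 bases of 80.8% and 82.6%. The Pumilio element TGTANATA, bound by a family of repressors of translation, was present anywhere in the 3′ UTR of 11 of the 26 (42.3%) and of 28.4% of all genes. The genes called lower had shorter annotated transcripts, with a median of 2504 bases against 3324 bases. Of the 2 genes called higher Slc25a48 held the cytoplasmic polyadenylation element and Tacc3 did not, nor did Mff, H3f3a or Ncaph. The sites of the gene with the largest fold change (Ube2t), of the passenger kinase (Aurkb), of Tm2d1 and of Slc25a48 are shown 5′ to 3′ in the sense of the transcript, with the element in capitals.
Ube2t, chr1:134974081-134974110, plus strand: aaggatagtttgTTTTATttatcttgtaca
Aurkb, chr11:69051616-69051645, plus strand: tgaagaacaacaTTTTATaataaagtctta
Tm2d1, chr4:98355389-98355418, minus strand: gtcacttgtcatTTTTATttgtgaaaaata
Slc25a48, chr13:56474180-56474209, plus strand: tgtggacatgacTTTTATgtggaaatcata
In Aurkb the element runs straight into the signal, with 0 bases between them, and in Tm2d1, Slc25a48 and Ube2t 8, 11 and 42 bases lie between. These matches describe the annotated ends, and tail lengths were not measured.

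The number of calls depended strongly on which oocytes were included. Mff and Ncaph were called in each of the 7 fits that left out 1 oocyte, H3f3a in 6 and Ube2t in 5, and the other 24 in 1 to 4 of them. All 28 kept their direction in all 7. Without NSN-MII 3 the count rose to 240, of which 128 were lower (1.23% of 10420 genes tested) and 112 higher (1.07%), and 27 of the 28 were among them. The gene lost was Ube2t. Without SN-MII 4 the count fell to 9, all of them lower (0.091% of 9894): Calm2, Dusp10, H3f3a, Mff, Mum1, Ncaph, Sdhaf4, Slc30a3 and Ube2t. The other 19 of the 28, among them Aurkb, Bub3, Tacc3, Kpna2, Cfl1 and Psma2, then had adjusted p of 0.0555 to 0.158. Their log2 fold changes without SN-MII 4 included -2.06 for Aurkb, -1.22 for Bub3, 1.19 for Tacc3 and -0.88 for Psma2. Of the gene lists, 6 held a call without SN-MII 4, and each of these held 1. Leaving out any other oocyte gave 3 to 35 calls. DESeq2, applied to all 7 oocytes, called 165 genes lower (1.65%) and 52 higher (0.519%), the 28 included. SN-MII 4 was the highest SN-MII oocyte in 88.5% of the genes called lower and in 30.7% of all genes tested.

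**Figure D5:**
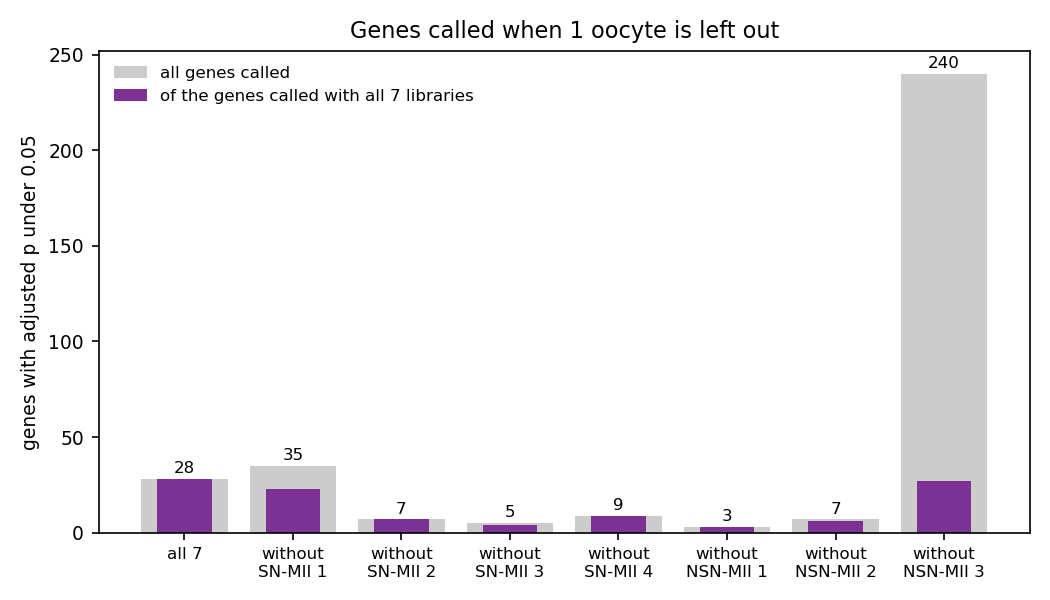
Number of genes with an adjusted p under 0.05 with all 7 oocytes and with each oocyte left out in turn (grey), and how many of them were among the 28 (purple). The count goes from 3 without NSN-MII 1 to 240 without NSN-MII 3.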

How the data were processed

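Single-oocyte SMART-seq2 libraries (Nextera, HiSeq X-10) were compared at MII, 3 NSN-MII against 4 SN-MII, grouped by the deposited labels. Per the submitters' processing notes and the methods, reads were trimmed with Trim Galore 0.4.4, mapped to mm10 with Bowtie2 2.3.5 and quantified with RSEM 1.2.28 (DESeq2 1.20.0 served to normalize). The expected count values deposited by the authors share out reads that match several genes, so 9.27% to 11.4% of a library's values were not whole, and they were rounded here. The FPKM values deposited by the authors, for all 13 libraries, were scaled by them for gene length and library size. The GV count table was not used here. Neither strand-specific counting nor molecular identifiers are given in the sources used here, so overlapping or antisense genes cannot be told apart and PCR copies count as reads.

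Genes were filtered with filterByExpr, scaled by TMM and tested with edgeR 4.0.16 in R 4.3.3 (glmQLFit with robust estimation, glmQLFTest, no covariate), with Benjamini-Hochberg adjustment over all genes tested. The threshold for a call was an adjusted p of 0.05. The common biological coefficient of variation was 0.344, so the spread between oocytes, and not depth, limited most genes. Features of the FPKM table with no counts were tested with limma 3.58.1 (trend) on log2(FPKM + 1), if at least 3 MII libraries had an FPKM of at least 1. Library measures were compared by an exact permutation test, two-sided. No pair of libraries was identical, with Pearson's r between 0.966 and 0.987 over genes. "Without overlap" and "wholly lower" or "wholly higher" mean that no library of one group reached the range of the other in CPM.

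The comparison and the 31 gene lists were chosen with earlier results of these data known, and lists were described by counts and medians without a set test. Named were every gene called, in each list the 2 members of smallest p without overlap, the 5 largest changes in each direction that were not called at an unadjusted p under 0.05 without overlap and with at least 10 CPM, FPKM-only features called (none), and the oocyte markers. This gave 91 genes with Fbl, which was added for the injected mRNA. Other genes named from the lists, such as paralogues and partners of a called gene, were chosen after their values were seen. Coordinates and 3′ ends came from GENCODE M21, in which 99.7% of the symbols tested were found.

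Alternatives were DESeq2 1.42.0, its size factors, no filter, limma on FPKM, thinning to the smallest library, a fold minimum, the replicate number as a block and each library left out. The fit without robust estimation was added after the data were seen. On simulated data for NSN-MII against SN-MII (9728 genes in the step), the edgeR test recovered 26% of 100 genes changed by 1 and 73% of 100 changed by 2 on the log2 scale, with 8 unchanged genes called. On the same data DESeq2 recovered 36% and 83%, with 21 unchanged genes called. Imaging and maturation rates were not analysed here, and some genes are not reported here.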

Additional observations from a re-analysis of the deposited data

Results flagged for a closer look

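In 10 of the 91 named genes 1 SN-MII oocyte stood apart from the other 3 by more than the critical ratio of gap to range for 4 samples (0.829), a limit that chance passes in about 1 of 20 groups. In 8 of the 10 it was SN-MII 4, the highest in 5 and the lowest in 3, and in the other 2 it was SN-MII 1, the lowest.

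SN-MII 4 was the highest for 3 genes called lower in NSN-MII. Mff was at 1171 CPM there and at 649.8 to 659 CPM in the other 3. Ube2t was at 886 CPM against 286 to 331 CPM, and Psma2 at 672 CPM against 477 to 509 CPM. It was also the highest for H2afx, at 205.0 CPM against 79.5 to 89.3 CPM, and for the splicing factor gene Sf3b4, at 94.0 CPM against 69.7 to 73.2 CPM. SN-MII 4 was the lowest for Hivep2, a zinc-finger gene, at 0.49 CPM against 3.96 to 4.58 CPM. The same held for Pik3cb, a catalytic subunit of PI3-kinase, at 2.71 CPM against 8.64 to 9.40 CPM, and for the ribosomal protein gene Rpl17, at 29.6 CPM against 34.9 to 35.2 CPM.

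SN-MII 1 was the lowest for Gdf9, at 8665 CPM against 10631 to 10717 CPM, and for Nlrp5, a gene of the subcortical maternal complex, at 662 CPM against 983 to 1045 CPM.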

How the results depend on the processing

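All 28 genes kept their direction under every alternative. The count of calls was 217 with DESeq2 (165 lower and 52 higher, all 28 included), 57 with no filter on low counts (26 of the 28, without Tm2d1 and Ube2t) and 9 with limma on FPKM (7 of the 28). It was between 3 and 240 when 1 oocyte was left out: 35 without SN-MII 1, 7 without SN-MII 2, 5 without SN-MII 3, 9 without SN-MII 4, 3 without NSN-MII 1, 7 without NSN-MII 2 and 240 without NSN-MII 3. Of the 28 genes 23, 7, 4, 9, 3, 6 and 27 were among them. The deviations of same-numbered oocytes from their group means had r of 0.03, 0.09 and -0.13. With any SN-MII oocyte r was -0.22 to 0.16, -0.10 to 0.09 and -0.18 to 0.23 for NSN-MII 1 to 3. For NSN-MII 2 the same-numbered oocyte was thus the best match. With 3 and 4 oocytes these values cannot settle whether the numbers pair oocytes. With the replicate number as a block 3 genes were called, H3f3a, Mff and Ube2t. DESeq2's size factors gave 27 calls, thinning 28, a fold minimum 28 and the fit without robust estimation 26. Genes at an unadjusted p under 0.05 and 1.5-fold, 715 in all, numbered 601 to 1240 with 1 oocyte left out, the highest without NSN-MII 3. FPKM-only features gave 0 to 1 calls, the 1 without SN-MII 3. Of the log2 fold changes of the 91 named genes, those of 5 markers outside the 28 changed sign. With 1 oocyte left out they lay between -0.19 and 0.0018 for Dazl (0.0018 without SN-MII 4), between -0.57 and 0.017 for Nlrp5 and between -0.55 and 0.27 for Zp3 (both highest without NSN-MII 3), and between -0.077 (without NSN-MII 1) and 0.85 for Zp2. For H1foo they lay between -0.22 and 0.10, with 0.085 without SN-MII 4, 0.065 without NSN-MII 1 and 0.10 without NSN-MII 2, and the value was 0.022 with limma on FPKM and 0.068 with the replicate block. Of the 31 lists, 9 kept the sign of their median in all 15 fits, among them the zona list (-0.64 to -0.32), the secreted factors (-0.42 to -0.19) and homologous recombination (0.16 to 0.24). The causes of these changes were not tested.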

Other observations

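Among genes outside the calls that changed most by the naming rule, the 5 lower ones had log2 fold changes of -2.78 to -2.14, none with an adjusted p under 0.05 (edgeR, Benjamini-Hochberg adjustment). Scin, which encodes the actin-severing protein scinderin, was at 22.3 to 38.9 CPM in SN-MII and at 6.33, 5.82 and 0.74 CPM in NSN-MII (log2 fold change -2.78, adjusted p = 0.0635). Dpys, an enzyme of pyrimidine breakdown, was at 17.9 to 28.3 CPM against 1.34 to 8.51 CPM (adjusted p = 0.106). Of the higher ones, Pnmal1 was at 2.21 to 5.64 CPM in SN-MII and at 29.4, 11.5 and 5.66 CPM in NSN-MII (log2 fold change 2.12, adjusted p = 0.153). Rlf, a zinc-finger gene, was at 4.06 to 5.51 CPM against 20.2, 14.9 and 6.26 CPM (adjusted p = 0.17). In both, NSN-MII 3 lay nearest to SN-MII.

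Of the 15 oocyte markers 9 had a negative and 6 a positive log2 fold change (median -0.08), and none was called with all 7 oocytes. Without NSN-MII 3, Ddx4, Nobox, Zp1 and Zp2 were called higher and Bmp15 lower, and the median was 0.017. Of all genes tested in that fit 1.07% were called higher and 1.23% lower. Without SN-MII 4 no marker was called. DESeq2 on all 7 oocytes called Ddx4 and Nobox higher and Bmp15 lower. In the main fit the largest positive log2 fold changes of the markers included those of Ddx4 and Nobox. NSN-MII and SN-MII oocytes did not overlap in Ddx4 and overlapped in Nobox. Ddx4, an RNA helicase of the germ line, was at 27.2 to 57.0 CPM in SN-MII and at 114, 129 and 66.3 CPM in NSN-MII (log2 fold change 1.18, adjusted p = 0.128). Nobox, a homeobox factor of follicle formation, was at 49.7 to 93.8 CPM in SN-MII and at 205, 268 and 86.0 CPM in NSN-MII (log2 fold change 1.24, adjusted p = 0.193).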
